A study of Mus musculus with 6 samples.

Results

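The genes described here are 9 members of the bone morphogenetic protein (BMP) pathway, picked by symbol from the 55401 genes of the count table. They are the ligands Bmp2, Bmp4, Bmp5 and Bmp7, the secreted antagonists Grem1 and Nog, and the target genes Id1, Id2 and Id3. They were measured by RNA-seq in 6 libraries of cultured cancer-associated fibroblasts (CAFs), 3 labelled Thbs2KO and 3 labelled WT. The fibroblasts came from rectal tumours that grew after mouse tumour organoids were implanted orthotopically. The hosts were Thbs2KO mice, which lack the secreted matricellular protein thrombospondin-2, or wild-type (WT) mice. In both groups they were kept on plates coated with fibronectin, in medium with serum, so the values describe fibroblasts in culture. Strain, age, the organoids' genotype, the kind of Thbs2 allele and whether replicates are separate mice or cultures are given in none of the sources used here. The p-values therefore reflect library-to-library spread only, and part of it may be technical.

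BMP ligands are secreted dimers that bind complexes of type I and type II serine/threonine kinase receptors. The receptors phosphorylate SMAD proteins of the BMP branch, which enter the nucleus with SMAD4 and switch on direct targets, the Id genes among them. Id proteins lack a DNA-binding region and hold E proteins, their helix-loop-helix partners, away from DNA. In the colon, antagonists such as gremlin-1 are made by mesenchyme near the crypt base and keep BMP signalling low around stem cells, while BMP signalling nearer the lumen favours differentiation.

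Levels are printed as CPM, read counts relative to library totals scaled with TMM, and a gene was called changed at an adjusted p below 0.05 over all 13590 tested genes (edgeR quasi-likelihood test, Benjamini-Hochberg). The fit called 148 genes, 1.09% of those tested (75 higher and 73 lower in Thbs2KO). Total expected counts ran from 19649066 to 20860335 in the Thbs2KO libraries and from 23061568 to 24417464 in the WT libraries. Thbs2 was at 412 to 538.2 CPM in the Thbs2KO libraries and at 2327 to 4166 CPM in the WT libraries, the direction that the labels imply. Its reads were not absent from Thbs2KO, with 8426 to 11382 in a library, and their source was not tested. The most similar libraries were Thbs2KO replicates 1 and 2 (chi-square over genes per degree of freedom 3.78, with 15.6 to 121.8 in all other pairs). They differed by more than sampling noise and were counted as 2, but no source used here says whether they are separate cultures, and if they were 1 sample the Thbs2KO n printed as 3 would be 2. The second principal component, with 27.9% of the variance, set Thbs2KO replicate 3 and WT replicate 1 apart from the other libraries. The fibroblast markers Col1a1, Col1a2 and Col3a1 were abundant in all 6 libraries, Col3a1 being the least abundant with at least 3637 CPM. The highest values in any library were 1.80 CPM for the epithelial gene Epcam, 0.426 CPM for the endothelial gene Pecam1 and 0.168 CPM for the leukocyte gene Ptprc, while the most abundant markers of those lists reached 14.6 CPM (Krt19), 45.0 CPM (Kdr) and 10.3 CPM (Lyz2).

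Promoter sequence was available for 5 of the 9 members (RefSeq, build GRCm38.p6, the assembly of mm10). Those of Grem1, Id2 and Id3 are shown because the antagonist and the Id targets carry nearly all of the reads of the set, and that of Id4 because it was the one pathway gene called. Each is the 250 bases before the RefSeq start, read 5′ to 3′ in the direction of the gene. The windows of Id2 and Id3 lie inside the gene spans printed below, which come from another annotation and start further upstream. Distances are therefore from the RefSeq start only. Capitals mark GGCGCC and GGAGCC, GC-rich motifs of the kind that SMADs of the BMP branch bind, and CAGAC, the core of the general SMAD-binding element, each searched on both strands. Grem1 is at chr2:113758649-113758898 (minus strand), Id2 at chr12:25096093-25096342 (minus strand), Id3 at chr4:136143572-136143821 (plus strand) and Id4 at chr13:48260866-48261115 (plus strand).
Grem1: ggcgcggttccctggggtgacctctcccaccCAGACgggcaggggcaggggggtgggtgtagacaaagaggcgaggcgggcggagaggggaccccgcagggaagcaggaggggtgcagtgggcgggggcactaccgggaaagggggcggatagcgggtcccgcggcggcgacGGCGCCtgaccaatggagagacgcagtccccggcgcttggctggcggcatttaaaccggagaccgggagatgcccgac
Id2: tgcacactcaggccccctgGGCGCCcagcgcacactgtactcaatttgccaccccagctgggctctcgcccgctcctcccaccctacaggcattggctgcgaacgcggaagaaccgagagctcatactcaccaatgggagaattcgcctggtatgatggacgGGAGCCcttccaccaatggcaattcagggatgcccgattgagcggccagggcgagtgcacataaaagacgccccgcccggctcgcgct
Id3: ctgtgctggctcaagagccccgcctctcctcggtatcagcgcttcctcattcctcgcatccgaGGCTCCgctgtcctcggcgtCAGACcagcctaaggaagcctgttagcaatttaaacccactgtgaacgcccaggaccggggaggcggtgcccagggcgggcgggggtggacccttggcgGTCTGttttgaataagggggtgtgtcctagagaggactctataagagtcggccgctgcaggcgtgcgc
Id4: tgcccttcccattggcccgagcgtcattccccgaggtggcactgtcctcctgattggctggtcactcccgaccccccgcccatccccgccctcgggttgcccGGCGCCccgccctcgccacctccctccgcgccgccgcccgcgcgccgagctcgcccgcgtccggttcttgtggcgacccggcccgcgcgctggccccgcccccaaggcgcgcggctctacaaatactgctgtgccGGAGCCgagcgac
GGCGCC began 78 bases before the start in Grem1, 231 bases before it in Id2 and 148 bases before it in Id4. This motif is in 9.6% of the 32851 promoter windows of the same length. GGAGCC or its complement was in Id2, Id3 and Id4 and is in 26.0% of all windows. CAGAC or its complement was found at 2 places in Id3 and at 1 in Grem1, and is in 42.2% of all windows. A match describes the sequence and shows no binding, and no motif overlapped another in these 4 windows.

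None of the members was called changed, although Grem1 lay above and Id1 below the WT libraries in all 3 Thbs2KO libraries. Of the 9 members, 7 passed the filter on low counts, and Bmp2 and Bmp7 did not. By edgeR 0 of the 7 were called, against 1.09% of all tested genes, and DESeq2 also called 0, against 5.15%. At an unadjusted p under 0.05, edgeR put 2 members lower (Id1 and Id2) and 0 higher, against 7.56% of all tested genes lower and 5.72% higher. The Thbs2KO and WT libraries did not overlap for 2 of the 7, Grem1 and Id1, against 19.7% of all tested genes. Log2 fold changes were negative for 6 of the 7, with a median of -0.40, beside 50.9% negative and a median of -0.0038 over all tested genes. With so few members, these counts do not set them apart from other genes.

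**Figure D1:**
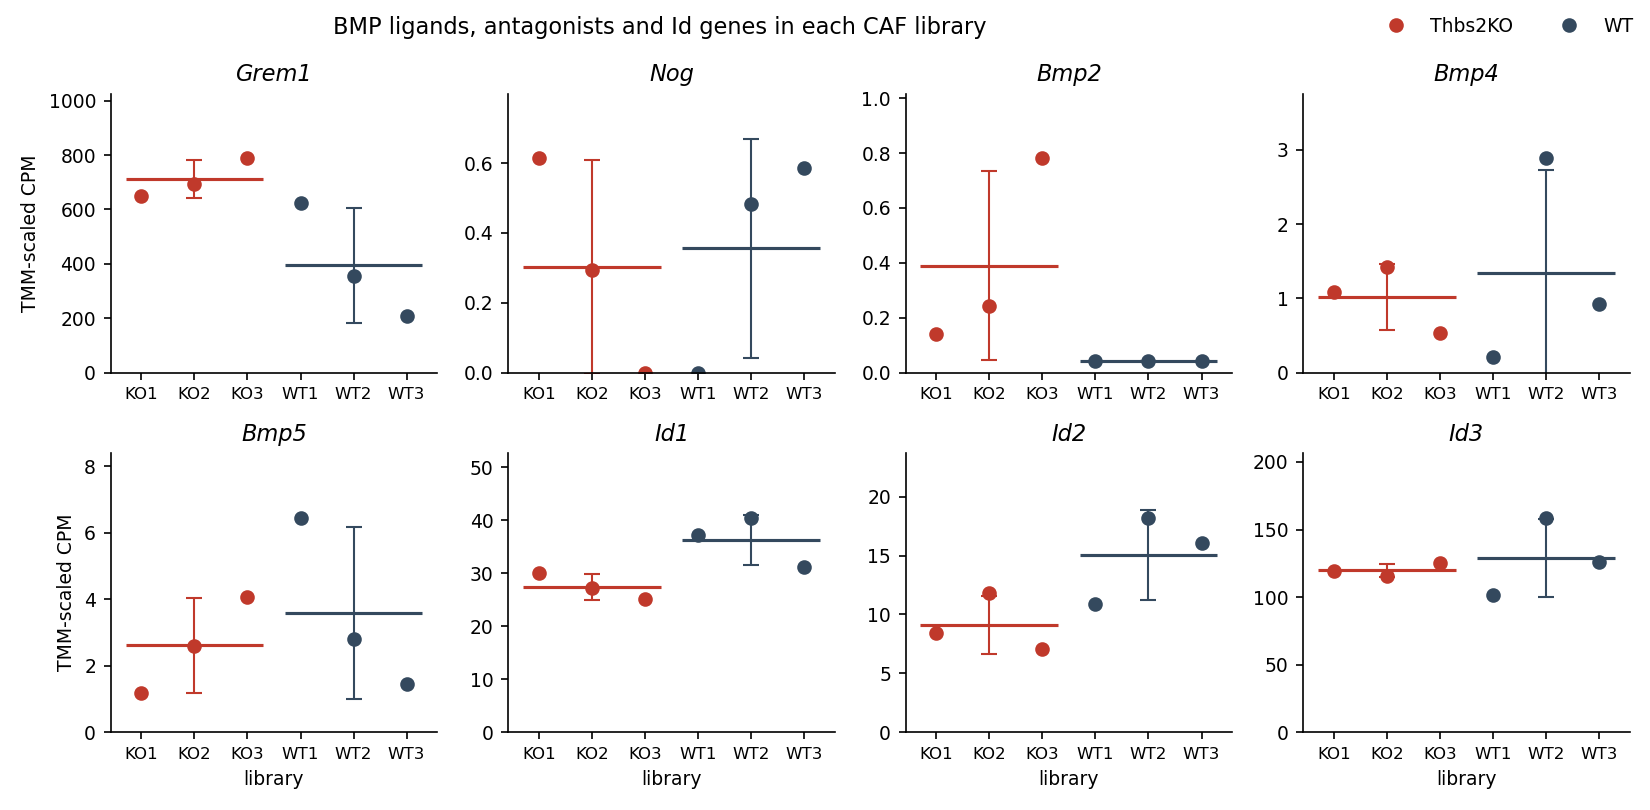
TMM-scaled CPM of 8 members (vertical axes, from 0, a scale for each gene) in the Thbs2KO libraries (KO1 to KO3, red) and the WT libraries (WT1 to WT3, dark blue); points are libraries, horizontal lines are group means and bars are SD, and Bmp7, with at most 1 read in a library, is left out. Grem1 in WT1, at 624.9 CPM, sits just under the lowest Thbs2KO library at 650.7 CPM.

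Grem1 (ENSMUSG00000074934.3, chromosome 2, 113746164 to 113758646, minus strand, mm10) encodes gremlin-1, which binds BMP ligands and keeps them from their receptors. It measured 650.7, 694.1 and 789.4 CPM in Thbs2KO replicates 1, 2 and 3, and 624.9, 353.9 and 208.4 CPM in WT replicates 1, 2 and 3. All 3 Thbs2KO libraries lay above all 3 WT libraries, but WT replicate 1 missed the lowest of them by a narrow margin, and the WT libraries spread over a wide range. The means were 711.4 ± 71.0 CPM in Thbs2KO and 395.8 ± 211.4 CPM in WT (SD, n = 3 each; log2 fold change 0.85, SE 0.366; adjusted p = 0.393, edgeR with Benjamini-Hochberg). The 95% interval of the log2 fold change, from -0.031 to 1.72, holds both no difference and one of more than 1 on the log2 scale. The value depended on WT replicate 1: without it the log2 fold change was 1.34, just short of the threshold (edgeR, Benjamini-Hochberg adjusted p = 0.0505). Without WT replicate 3 it was 0.54 (adjusted p = 0.657), and over 16 alternatives the adjusted p ran from 0.0505 to 0.657.

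The summed markers of contractile cells were lower in the means of Thbs2KO than of WT, where Grem1 was higher, and stood in the reverse order to Grem1 over the WT libraries but in the same order over the Thbs2KO libraries. The summed level of the 10 pericyte and smooth muscle markers was 2218, 2547 and 2640 CPM in Thbs2KO replicates 1, 2 and 3, and 2647, 5637 and 5801 CPM in WT replicates 1, 2 and 3. WT replicate 1 was thus the WT library nearest to Thbs2KO both in this sum, which came mostly from Acta2, and in Grem1. It was also the nearest WT library in Myh11, Cnn1, Actg2 and Mcam. In Des, Cspg4, Kcnj8 and Rgs5 it lay below every Thbs2KO library, and in Notch3 above them. By edgeR 0 of its 9 tested markers were called, 7 had negative log2 fold changes and 5 were lower at an unadjusted p under 0.05, against 7.56% of all tested genes. DESeq2 called 3 of them, against 5.15%, and Des and Cspg4 had positive log2 fold changes (0.051 and 0.36). None of the 10 markers was at 0 in every library, and Rgs5 was under 0.7 CPM in each. Pdgfra, the receptor that marks many gut fibroblasts, measured 1013, 947 and 1527 CPM in Thbs2KO replicates 1, 2 and 3, and 750.5, 555.9 and 388 CPM in WT replicates 1, 2 and 3 (edgeR, Benjamini-Hochberg adjusted p = 0.172; DESeq2, 0.00507). Its WT libraries stood in the same order as those of Grem1. Pdgfra was singled out among the fibroblast markers with its values in view. Of the 12 fibroblast markers 5 lay below 0 on the log2 fold change scale and the median was 0.17, and in the PDGFRA-high list 2 of 4 tested were negative, with a median of -0.26 (F3 at -0.62, Wnt4 at -1.33). By edgeR 0 markers of either list were called. In the list of CD81+ submucosal fibroblasts 8 markers were tested, 5 were negative and the median was -0.043. The sum of that list was 468, 515 and 781 CPM in Thbs2KO replicates 1, 2 and 3. In WT replicates 1, 2 and 3 it was 1039, 464 and 482 CPM, and the genotypes overlapped. EdgeR called 0 of the 8 and DESeq2 called 1, against 5.15%. The part of these markers in the Grem1 values was not tested, and in bulk RNA fewer cells of a type and less RNA per cell cannot be told apart.

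Nog (ENSMUSG00000048616.4, chromosome 11, 89300638 to 89302332) encodes noggin, an antagonist that wraps BMP dimers and covers their receptor-binding faces. It had 13, 6 and 0 reads in Thbs2KO replicates 1, 2 and 3, and 0, 11 and 14 reads in WT replicates 1, 2 and 3. The groups overlapped fully, and the libraries without a read were Thbs2KO replicate 3 and WT replicate 1. At this depth 3 reads, the limit that a count of 0 allows, correspond to 0.147 CPM in Thbs2KO replicate 3 and to 0.129 CPM in WT replicate 1, for counting error only. The log2 fold change was -0.22 (SE 1.20; adjusted p = 0.968, edgeR with Benjamini-Hochberg), and its interval from -3.09 to 2.64 leaves large differences in either direction undetectable. Per kilobase of merged exons, Grem1 made up at least 99.3% of the summed level of both antagonists in every library.

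The BMP ligands were expressed at low levels. Bmp4 (ENSMUSG00000021835.15, chromosome 14, 46383520 to 46390669, minus strand), a ligand made widely by gut mesenchyme, had 23, 29 and 11 reads in Thbs2KO replicates 1, 2 and 3, and 5, 66 and 22 reads in WT replicates 1, 2 and 3. Its highest and its lowest library were both WT. The levels were 1.01 ± 0.445 CPM in Thbs2KO and 1.34 ± 1.39 CPM in WT (SD, n = 3 each; log2 fold change -0.40, SE 0.832; adjusted p = 0.907, edgeR with Benjamini-Hochberg). Without WT replicate 2 the direction turned, with a log2 fold change of 0.84 (adjusted p = 0.811). An antisense gene that overlaps Bmp4, Gm15222, had at most 1 read in a library, and the kit does not mark strand.

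Bmp5 (ENSMUSG00000032179.7, chromosome 9, 75775364 to 75900310, plus strand), a ligand of the same branch as Bmp7, had 25, 53 and 83 reads in Thbs2KO replicates 1, 2 and 3, and 150, 64 and 35 reads in WT replicates 1, 2 and 3. Replicates 1 of the genotypes were its extremes, Thbs2KO replicate 1 the lowest and WT replicate 1 the highest. The levels were 2.61 ± 1.44 CPM in Thbs2KO and 3.58 ± 2.58 CPM in WT (SD, n = 3 each; log2 fold change -0.45, SE 0.632; adjusted p = 0.847, edgeR with Benjamini-Hochberg). Without WT replicate 1 the log2 fold change was 0.29 (adjusted p = 0.820). Bmp4 and Bmp5 traded rank between libraries: Bmp4 took 59.2%, 47.0% and 16.3% of the summed ligand level per kilobase in Thbs2KO replicates 1, 2 and 3, and 5.56%, 64.1% and 52.2% in WT replicates 1, 2 and 3. The share of Bmp4 was lowest in WT replicate 1 and Thbs2KO replicate 3, which the second principal component also set apart.

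Bmp2 (ENSMUSG00000027358.6, chromosome 2, 133552159 to 133562885), a ligand closely related to Bmp4, had 3, 5 and 16 reads in Thbs2KO replicates 1, 2 and 3, and 1 read in each WT library. The groups did not overlap, but 16 of the 24 Thbs2KO reads came from replicate 3. Relative to library size the summed reads, 24 in Thbs2KO and 3 in WT, gave a ratio of 9.02 with an exact 95% interval of 2.74 to 46.8, which covers counting error only and not the spread between libraries. Bmp2 was under the filter; with no filter its adjusted p was 0.204 (edgeR, Benjamini-Hochberg). Bmp7 (ENSMUSG00000008999.7, chromosome 2, 172868012 to 172940321) had 0 reads in each Thbs2KO library, which allows up to 0.142 to 0.147 CPM, and 1, 1 and 0 reads in WT replicates 1, 2 and 3. It was near or under the limit that a count of 0 allows in all 6 libraries, and no difference was detectable at this depth.

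Id1 (ENSMUSG00000042745.9, chromosome 2, 152736251 to 152737410, plus strand), a direct SMAD target widely used as a readout of BMP signalling, lay lower in Thbs2KO by a small margin. It measured 30.0, 27.2 and 25.1 CPM in Thbs2KO replicates 1, 2 and 3, and 37.2, 40.5 and 31.3 CPM in WT replicates 1, 2 and 3. The groups did not overlap, with WT replicate 3 only just above Thbs2KO replicate 1. The means were 27.4 ± 2.43 CPM in Thbs2KO and 36.3 ± 4.69 CPM in WT (SD, n = 3 each; log2 fold change -0.40, SE 0.123, 95% interval -0.70 to -0.11; adjusted p = 0.215, edgeR with Benjamini-Hochberg). It stayed negative over 16 alternatives, from -0.50 to -0.31, and did not pass the threshold in any of them (adjusted p from 0.115 to 0.496).

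Id2 (ENSMUSG00000020644.9, chromosome 12, 25093799 to 25097140, minus strand) measured 8.42, 11.8 and 7.09 CPM in Thbs2KO replicates 1, 2 and 3, and 10.8, 18.2 and 16.1 CPM in WT replicates 1, 2 and 3. The groups overlapped through Thbs2KO replicate 2 and WT replicate 1. The means were 9.12 ± 2.45 CPM in Thbs2KO and 15.0 ± 3.79 CPM in WT (SD, n = 3 each; log2 fold change -0.72, SE 0.26, 95% interval -1.34 to -0.10; adjusted p = 0.299, edgeR with Benjamini-Hochberg). When WT replicate 1 and Thbs2KO replicate 3 were both left out, the log2 fold change was -0.76 and passed the threshold (adjusted p = 0.0436), in a fit that called 6.37% of all genes lower. The level of Id2 was not called under any other alternative.

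Id3 (ENSMUSG00000007872.3, chromosome 4, 136143497 to 136145755, plus strand) measured 119.2, 115.7 and 125.2 CPM in Thbs2KO replicates 1, 2 and 3, and 101.8, 158.9 and 126.1 CPM in WT replicates 1, 2 and 3. The Thbs2KO libraries lay within the range of the WT libraries. The means were 120.1 ± 4.79 CPM in Thbs2KO and 129 ± 28.7 CPM in WT (SD, n = 3 each; log2 fold change -0.10, SE 0.157; adjusted p = 0.866, edgeR with Benjamini-Hochberg). Its interval ran from -0.48 to 0.27, so a decrease of more than 0.48 or an increase of more than 0.27 lay outside it. Without WT replicate 2 the sign turned, to 0.086.

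**Figure D2:**
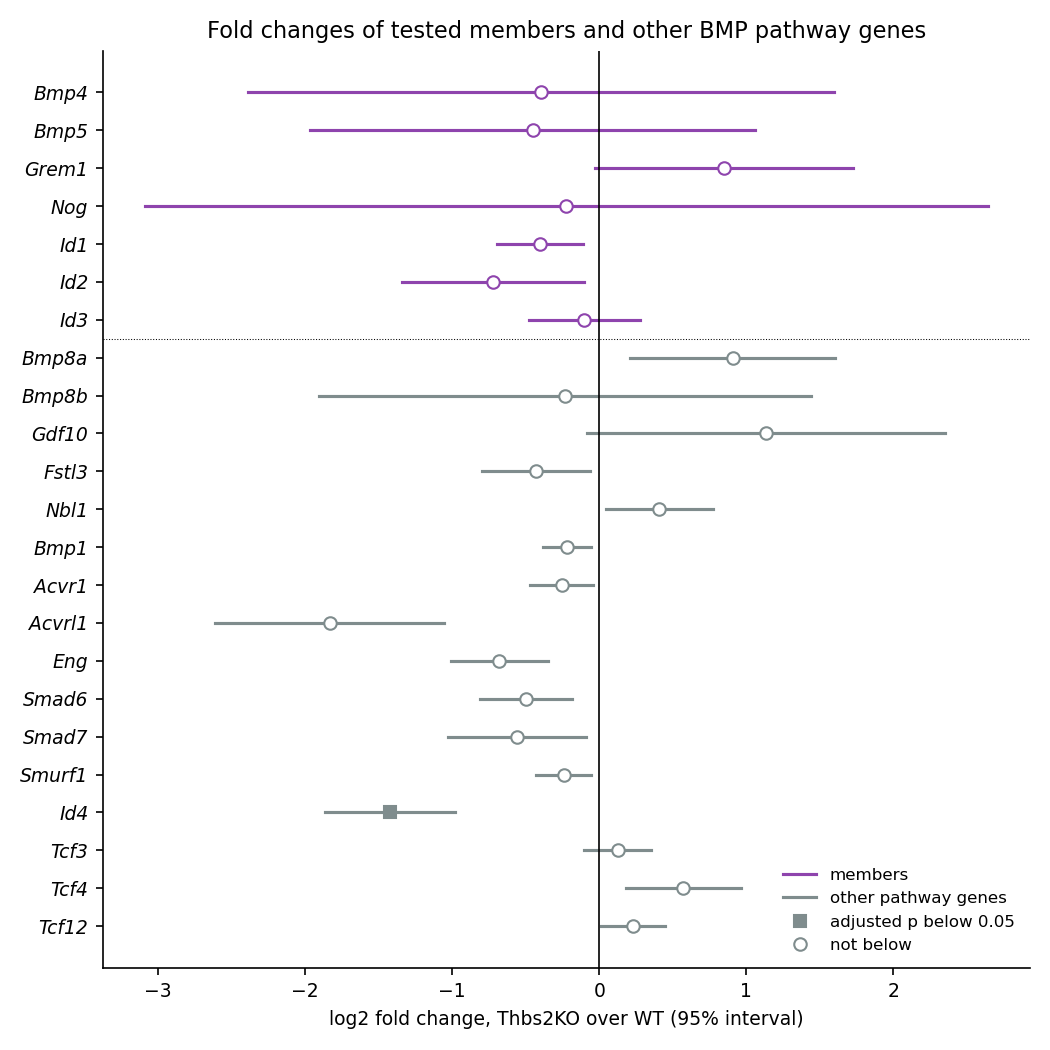
Log2 fold change, Thbs2KO over WT (horizontal axis), of the 7 tested members (purple, above the dotted line) and of the pathway genes named by rule (grey); bars are 95% intervals from the edgeR fit, and a filled square marks an adjusted p below 0.05. Id4, at -1.42, is the one filled square, and the intervals of Nog and Bmp4 are the widest.

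Levels were compared between genes as CPM per kilobase of merged exons. In Thbs2KO the means were 171.5 for Grem1, 67.0 for Id3, 23.6 for Id1 and 3.74 for Id2. In WT they were 95.4 for Grem1, 72.0 for Id3, 31.3 for Id1 and 6.17 for Id2. Id3, Id1 and Id2 kept this order in all 6 libraries. Id3 made up 69.4% to 74.0% of the summed level of the 3 Id genes in the Thbs2KO libraries and 60.9% to 67.7% in the WT libraries, which did not overlap. Grem1 stood above Id3 in the 3 Thbs2KO libraries and in WT replicate 1, and below it in WT replicates 2 and 3. All 4 ligands and Nog were under 1 CPM per kilobase in the means of both genotypes, and Bmp5 and Bmp4, next to each other in the order, did not differ beyond their spread.

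The antagonists exceeded the ligands in every library, by more in Thbs2KO. The ratio of the summed level per kilobase of Grem1 and Nog to that of the 4 ligands was 192.4, 124.6 and 129.7 in Thbs2KO replicates 1, 2 and 3, and 87.4, 42.7 and 64.3 in WT replicates 1, 2 and 3. The groups did not overlap, and WT replicate 1 was again the WT library nearest to Thbs2KO. As log2 of ligand over antagonist, the means were -7.19 ± 0.346 in Thbs2KO and -5.96 ± 0.519 in WT (SD, n = 3 each), a difference of -1.23. With each library left out in turn the difference ran from -1.48 to -0.96, and for Bmp4 against Grem1 alone it was -0.81. No test was made of this score, since its members were chosen with results of these data known, and the ligand side rests on 51 to 110 reads in the Thbs2KO libraries and 58 to 157 in the WT libraries.

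The summed level of the 3 Id genes overlapped between genotypes. It was 95.9, 92.9 and 94.5 CPM per kilobase in Thbs2KO replicates 1, 2 and 3, and 93.3, 131.1 and 104 CPM per kilobase in WT replicates 1, 2 and 3. The Thbs2KO libraries were close together, WT replicate 1 was among them, and WT replicate 2 was the highest.

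**Figure D3:**
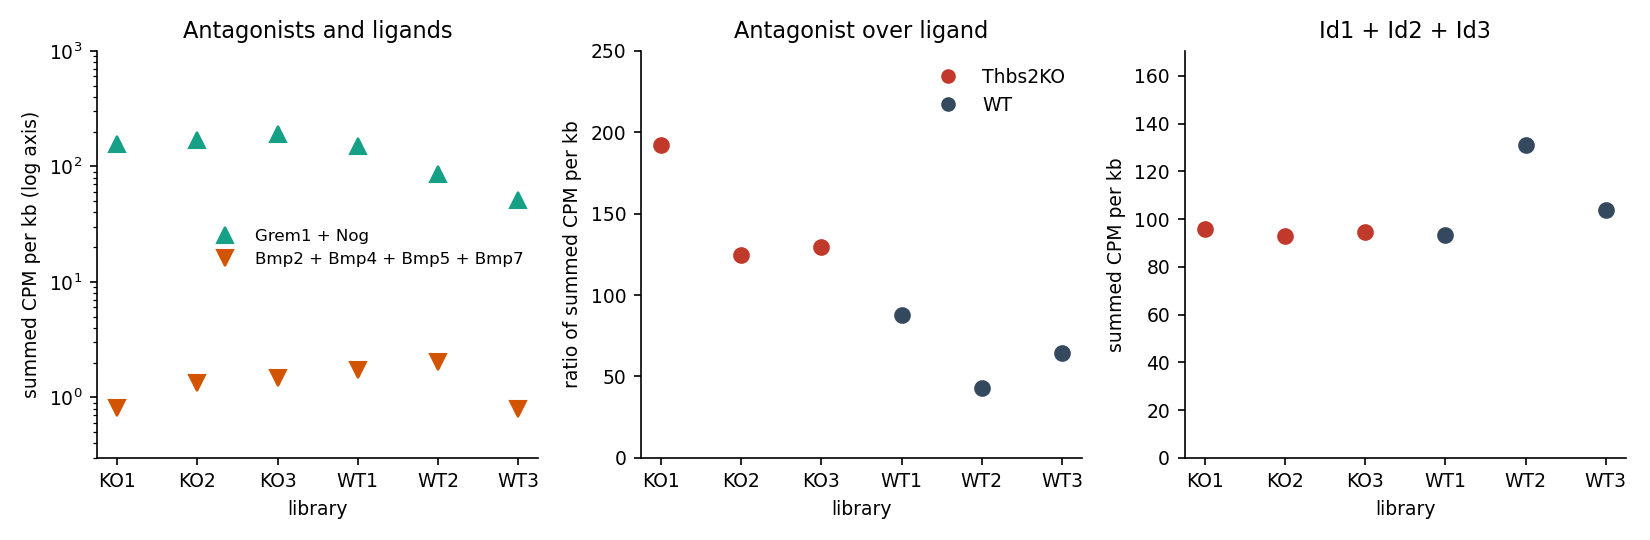
Left, summed CPM per kilobase of the antagonists and of the ligands in each library on a log axis; centre, the ratio of antagonists to ligands, from 0; right, the summed CPM per kilobase of Id1, Id2 and Id3, from 0 (KO1 to KO3, Thbs2KO; WT1 to WT3, WT; 1 point a library). The ratio is 124.6 to 192.4 in Thbs2KO and 42.7 to 87.4 in WT, while the Id sums overlap.

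Of 66 other genes of the pathway, taken from 6 lists, 52 were tested, and edgeR called 1 of them, Id4, against 1.09% of all tested genes. At an unadjusted p under 0.05, 7 of the 52 were higher and 13 lower, against 5.72% and 7.56% of all tested genes, and their median log2 fold change was -0.054. Some genes stand in more than 1 list: Smad6, Smad7 and Smad9 are among both the SMADs and the readout genes, and Bambi among both the receptors and the readout genes.

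Id4, the fourth Id family gene and one of 12 tested genes in the readout list of 16, fell in Thbs2KO. It measured 2.08, 2.25 and 2.05 CPM in Thbs2KO replicates 1, 2 and 3, and 5.94, 6.44 and 4.78 CPM in WT replicates 1, 2 and 3. All Thbs2KO libraries were far under the lowest WT library, and neither genotype had a library far from the others. The log2 fold change was -1.42 (SE 0.186; adjusted p = 0.0257, edgeR with Benjamini-Hochberg). DESeq2 gave a Benjamini-Hochberg adjusted p of 2.67e-06. The size held with each library left out, from -1.54 to -1.32, but the call did not: it was lost in 5 of 6 such fits, all but that without WT replicate 1, with a highest adjusted p of 0.150 (edgeR, Benjamini-Hochberg).

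The other readout genes were not called by edgeR. Over the 12 tested, 9 log2 fold changes were negative, with a median of -0.39, beside 50.9% negative and a median of -0.0038 over all tested genes. The genotypes did not overlap for 7 of the 12, against 19.7% of all tested genes. An unadjusted p under 0.05 (edgeR) was reached by 2 higher and 5 lower, against 5.72% and 7.56% of all tested genes. Atoh8, a helix-loop-helix factor induced by BMP signalling in several cell types, measured 9.98, 7.54 and 6.06 CPM in Thbs2KO replicates 1, 2 and 3, and 12.3, 19.5 and 18.9 CPM in WT replicates 1, 2 and 3. Its log2 fold change of -1.10 was called by DESeq2 (Benjamini-Hochberg adjusted p = 0.00287) and not by edgeR (0.116), which called it without WT replicate 1 (-1.29, adjusted p = 0.0431) and not with any other single library left out (up to 0.359). Runx2, an osteogenic transcription factor, had a log2 fold change of -0.41, while the homeobox gene Msx1 and the T-box gene Tbx3 stood at 0.83 and 0.38 (edgeR, Benjamini-Hochberg adjusted p = 0.303, 0.249 and 0.212). Atoh8, Runx2, Msx1 and Tbx3 were picked with their values in view.

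Among the SMADs and their regulators edgeR called 0 of 11, and DESeq2 called 0. An unadjusted p under 0.05 (edgeR) was reached by 0 higher and 3 lower, against 5.72% and 7.56% of all tested genes. Their median log2 fold change was -0.089. The inhibitory SMAD gene Smad6, itself a BMP target that feeds back on the receptors, measured 11.6, 12.2 and 12.4 CPM in Thbs2KO replicates 1, 2 and 3, and 14.8, 19.8 and 16.6 CPM in WT replicates 1, 2 and 3 (log2 fold change -0.50, SE 0.131; adjusted p = 0.159, edgeR with Benjamini-Hochberg). Smad7, the inhibitory SMAD shared with TGF-beta signalling, averaged 27.2 ± 6.76 CPM in Thbs2KO and 40.1 ± 4.75 CPM in WT (SD, n = 3 each), and Smurf1, a ubiquitin ligase for SMADs, 94.3 ± 3.06 CPM in Thbs2KO and 111.5 ± 8.66 CPM in WT (edgeR, Benjamini-Hochberg adjusted p = 0.285 and 0.254). The genotypes did not overlap for 4 of the 11, these 3 and Smad5, against 19.7% of all tested genes. Of the SMADs that carry the signal, Smad5 and Smad4 had log2 fold changes of 0.088 and -0.027, Smad5 lying higher in Thbs2KO. Smad1 and Smad9 stood at -0.20 and -0.42 (edgeR, Benjamini-Hochberg adjusted p = 0.763 and 0.659).

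Of 12 receptor and co-receptor genes 11 were tested, and edgeR called 0. An unadjusted p under 0.05 (edgeR) was reached by 1 higher and 3 lower, against 5.72% and 7.56% of all tested genes. DESeq2 called 2 lower, Acvrl1 and Eng, against 2.93% of all genes lower by that tool. Acvrl1, a type I receptor best known from endothelium, measured 15.9, 13.8 and 30.3 CPM in Thbs2KO replicates 1, 2 and 3, and 76.2, 54.1 and 83.2 CPM in WT replicates 1, 2 and 3. Its log2 fold change was -1.83 (SE 0.326; adjusted p = 0.0654, edgeR with Benjamini-Hochberg; DESeq2, 9.80e-07). Without Thbs2KO replicate 3 it was -2.26 and passed the threshold (edgeR, adjusted p = 0.0255), while with each of the other libraries left out it did not (adjusted p up to 0.256). Eng, endoglin, a co-receptor that works with Acvrl1, measured 52.1, 60.0 and 58.1 CPM in Thbs2KO replicates 1, 2 and 3, and 74.3, 106 and 92.4 CPM in WT replicates 1, 2 and 3 (log2 fold change -0.68, SE 0.138; adjusted p = 0.0875, edgeR with Benjamini-Hochberg). Without WT replicate 1 Eng stood at -0.81 and passed (edgeR, adjusted p = 0.0223), while with each of the other libraries left out it did not (up to 0.312). For both genes the Thbs2KO libraries were all lower than the WT libraries.

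The 8 endothelial markers summed to 32.2 to 50.5 CPM in the Thbs2KO libraries and 11.8 to 32.0 CPM in the WT libraries, mostly from Kdr. Of the 2 that were tested, Kdr had a log2 fold change of 1.26 and Tek one of -0.01 (edgeR, Benjamini-Hochberg adjusted p = 0.544 and 0.995). The means of Pecam1, Cdh5, Emcn and Tie1 were lower in Thbs2KO and that of Vwf was higher (0.277 CPM against 0.128 CPM in WT), each on few reads. Cldn5 was at 0 in every library, and Pecam1 and Cdh5 were under 0.6 CPM in each. The epithelial list of 11 summed to 12.5 to 18.1 CPM in the Thbs2KO libraries and 24.8 to 34.3 CPM in the WT libraries. All 7 tested genes had negative log2 fold changes, against 50.9% of all tested genes. By edgeR 0 of them were called and 2 were lower at an unadjusted p under 0.05, against 7.56% of all tested genes. DESeq2 called 2 of the 7, against 5.15% of all genes by that tool. None of the 11 was at 0 in every library, and their part in the values of the Id and receptor genes was not tested. Acvr1, the type I receptor of broad expression, averaged 61.1 ± 4.65 CPM in Thbs2KO and 72.9 ± 5.36 CPM in WT (SD, n = 3 each). Bmpr1a and Bmpr2, the main type I and type II receptors for Bmp2 and Bmp4, had log2 fold changes of -0.05 and -0.02, and the median of the list was -0.26.

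The other antagonists and modulators held 14 tested genes of 18, and edgeR called 0. An unadjusted p under 0.05 (edgeR) was reached by 1 higher and 4 lower, against 5.72% and 7.56% of all tested genes. Their median log2 fold change was -0.15. Bmp1, a protease that cleaves procollagen and the antagonist chordin and is no BMP despite its name, averaged 452.5 ± 10.9 CPM in Thbs2KO and 527.3 ± 13.3 CPM in WT (SD, n = 3 each; edgeR, Benjamini-Hochberg adjusted p = 0.228; DESeq2, 0.0269). Fstl3, a follistatin relative that binds activins, had a log2 fold change of -0.43, and Nbl1, the DAN antagonist, one of 0.41 (edgeR, Benjamini-Hochberg adjusted p = 0.298 and 0.320). Without WT replicate 1 Fstl3 stood at -0.59 and passed the threshold (edgeR, adjusted p = 0.0246), and without WT replicate 3 the adjusted p was 0.689.

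Of 10 further ligand genes 5 were tested and edgeR and DESeq2 called 0. An unadjusted p under 0.05 (edgeR) was reached by 1 higher and 0 lower, against 5.72% and 7.56% of all tested genes. Bmp8a had a log2 fold change of 0.91, the BMP3-like Gdf10 one of 1.13 and Bmp8b one of -0.23 (edgeR, Benjamini-Hochberg adjusted p = 0.247, 0.409 and 0.938). Gdf10 measured 17.4, 13.6 and 23.1 CPM in Thbs2KO replicates 1, 2 and 3, and 15.0, 3.59 and 6.04 CPM in WT replicates 1, 2 and 3. WT replicate 1 again lay among the Thbs2KO libraries, and without it the log2 fold change was 1.90 and passed the threshold (edgeR, adjusted p = 0.0455), while without WT replicate 3 the adjusted p was 0.783.

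The E proteins, the partners that Id proteins bind, had positive log2 fold changes for all 3 genes and edgeR called 0. Tcf4 measured 307.2, 288.9 and 374.5 CPM in Thbs2KO replicates 1, 2 and 3, and 235.4, 245.6 and 172.2 CPM in WT replicates 1, 2 and 3. The genotypes did not overlap, and the log2 fold change was 0.57 (SE 0.164; adjusted p = 0.194, edgeR with Benjamini-Hochberg; DESeq2, 0.0283). Tcf12 and Tcf3 stood at 0.23 and 0.13 (edgeR, Benjamini-Hochberg adjusted p = 0.349 and 0.666).

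**Figure D4:**
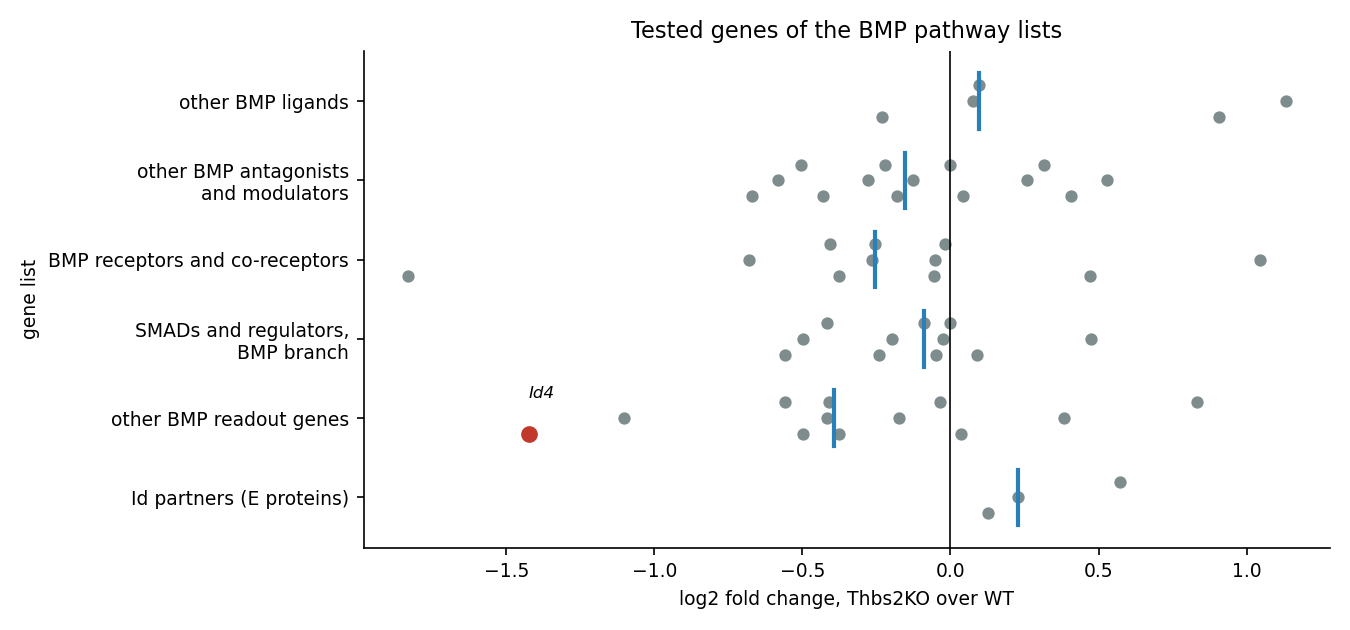
Log2 fold change, Thbs2KO over WT (horizontal axis), of the tested genes in each of 6 pathway lists (rows); each point is a gene, blue lines are list medians, and the red point is Id4, the one gene with an adjusted p below 0.05. The medians run from -0.39 in the readout genes to 0.23 in the E proteins.

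The genes whose pattern over the 6 libraries was most like that of a member were found by Pearson correlation of log2 CPM, as a description only. For Grem1 they were Ahcyl2, Car8 and Ogdhl (r from 0.991 to 0.993), for Id1 Rps9, Lins1 and Fam220a (0.971 to 0.978) and for Bmp4 Pdzd8, Rhot1 and Abcc9 (0.984 to 0.987). For each member 10472 or 10473 genes were compared over 6 points, and the points share the split by genotype. Ogdhl, an enzyme related to the oxoglutarate dehydrogenase subunit, measured 32.7, 39.3 and 39.6 CPM in Thbs2KO replicates 1, 2 and 3, and 31.1, 21.3 and 14.2 CPM in WT replicates 1, 2 and 3, the same order as Grem1.

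**Figure D5:**
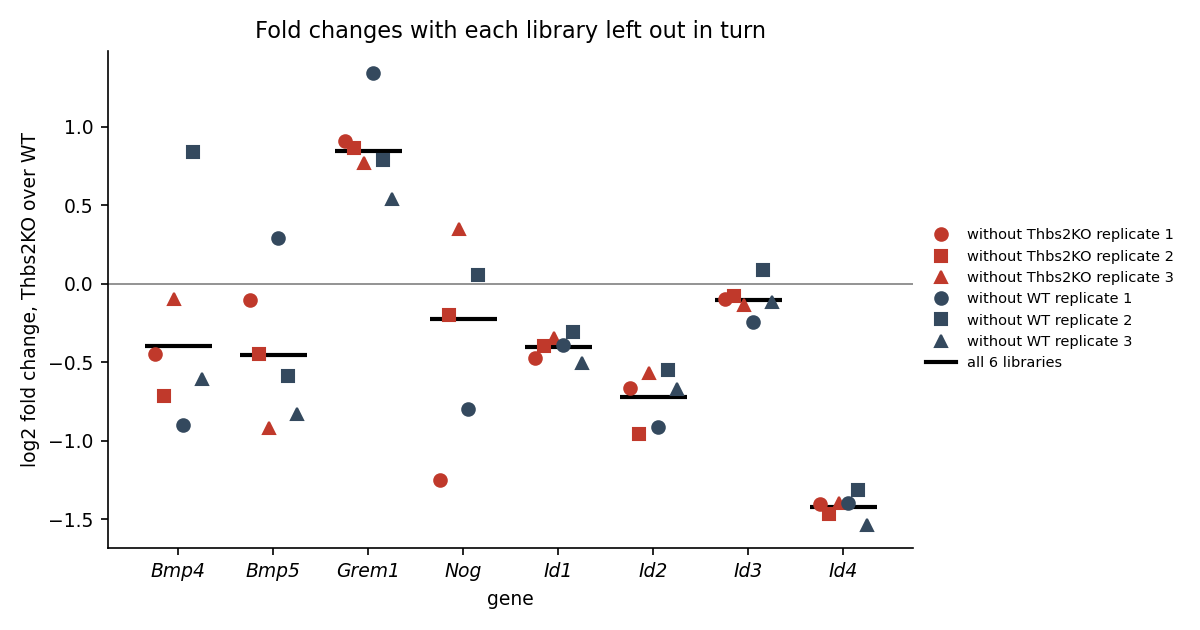
Log2 fold change, Thbs2KO over WT (vertical axis), of the 7 tested members and Id4 with all libraries (black line) and without 1 library (points; red for a Thbs2KO library left out, dark blue for a WT library). Id1, Id2 and Id4 stay below 0 and Grem1 above 0 in each fit, while Bmp4, Bmp5, Nog and Id3 have points on both sides; Nog was under the filter without WT replicate 3.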

How the data were processed

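RNA-seq libraries (3 Thbs2KO, 3 WT) were made with a TruSeq v2 kit, per the labels' protocols. The authors deposited expected counts, reads per gene estimated by RSEM and not scaled between samples; Trimmomatic 0.39, STAR 2.7.3a, RSEM and mm10 come from the submitters' processing notes. No source used here gives the RSEM version or the annotation. Of the values, 3.80% to 3.88% a library were not whole, and all were rounded. Genes passing filterByExpr (13590) were scaled with TMM and tested in edgeR 4.0.16 (quasi-likelihood, robust, genotype as the term, R 4.3.3) with Benjamini-Hochberg adjustment; standard errors and intervals come from its F statistic. DESeq2 1.42.0 and limma-voom (limma 3.58.1) were alternatives. Lengths and positions come from GENCODE M21 (GRCm38, the build of mm10). Intervals on reads and limits of a count of 0 (3 reads) cover counting error only. Low totals limit precision for the ligands and Nog.

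The members and lists were chosen with earlier results of these data known. Named genes are the members and, for each pathway list, the genes called, or else the 3 with the smallest p; Id1, Grem1 and Bmp4 each take the 3 genes of at least 5 CPM with the highest Pearson r. Alternatives were other scalings, tools, filters and dispersion settings, a replicate block, each library left out, WT replicate 1 and Thbs2KO replicate 3 left out together, and Thbs2KO replicates 1 and 2 summed. Plots were made in Python 3.11.15 (matplotlib 3.10.9).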

Additional observations from a re-analysis of the deposited data

How the results depend on the processing

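Over all genes, 148 were called; DESeq2 called 699, no filter 245, a replicate block 30, the fit without both WT replicate 1 and Thbs2KO replicate 3 1519, and Thbs2KO replicates 1 and 2 summed 40, and leaving out 1 library gave 38 to 397. Members called were 0 in the fit with all libraries and with each library left out (0 to 0), and 1, Id2, without both WT replicate 1 and Thbs2KO replicate 3. The direction turned for Bmp4 with limma-voom (0.16) and with 1 library left out (-0.90 to 0.84), for Bmp5 (-0.92 to 0.29), Nog (-1.25 to 0.35) and Id3 (-0.25 to 0.086) with 1 library left out (Id3 was at -0.28 without both WT replicate 1 and Thbs2KO replicate 3), and for Bmp8b with limma-voom (0.022) and with 1 library left out (-0.71 to 0.14). The cause was not tested. The ligand to antagonist difference ran from -1.56 to -0.81 over all alternatives and from -1.48 to -0.96 with 1 library left out. Id4 lost its call with the replicate block (-1.41, edgeR, Benjamini-Hochberg adjusted p = 0.148) and with Thbs2KO replicates 1 and 2 summed (adjusted p = 0.129). The labels give no pairing by replicate number. Deviations from the group means of same-numbered libraries correlated at -0.29, 0.17 and -0.33 over genes, and not every library correlated best with its own number. With 3 libraries a group, deviations within a group depend on each other. These values therefore cannot tell whether same-numbered libraries shared a culture or batch. The scalings moved the median of all genes by less than 0.01. Read depth limits Bmp2, Bmp7, Nog, Bmp4 and Bmp5.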
